A study of Mus musculus with 9 samples.

Results

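The region described here is the major replication-dependent histone gene cluster of mouse chromosome 13, between 21700000 and 23800000 of the GRCm38 build. Every listed interaction whose anchor midpoint on either side fell in this window was taken from all 10 deposited interaction tables, at any span. The rule found 3172 interactions out of 4560397 listed in all tables, or 0.0696%, and they held 8161 read pairs.

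The libraries were made by HiChIP, an assay in which chromatin contacts fixed in the nucleus are ligated and then enriched with an antibody, so that each read pair reports a contact near the chosen protein or mark. All cells were live CD4+CD8+ thymocytes isolated by flow sorting. These double-positive cells are immature T cells that rearrange and test their antigen receptor, and the labels give no age or treatment of the mice. The groups used were H3K27ac in NOD/ShiLtJ mice (NOD, 2 libraries), H3K27ac in C57BL/6J mice (BL6, 2 libraries), Smc1 in NOD (2 libraries), Smc1 in BL6 (2 libraries) and Smc1 in the (NOD/ShiLtJ X C57BL/6) F1 cross (1 library, mapped on both parental genomes). NOD is an inbred strain that develops autoimmune diabetes, BL6 is the strain of the mouse reference genome, Smc1 is a subunit of cohesin, and H3K27ac is acetylation of histone H3 at active regulatory DNA. Per the labels, the H3K27ac libraries of a strain were biological replicates, while both Smc1 libraries of a strain were technical replicates of 1 biological replicate, so tests that use them measure spread that may be technical. Titles and antibody field disagree for the 4 H3K27ac libraries, whose titles read Smc1; the antibody field was followed here. The names of the deposited tables place the NOD tables on the NOD genome with coordinates shifted to the reference, so strain and mapping genome cannot be told apart.

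Replication-dependent histone genes encode the bulk of the chromatin proteins that a cell makes while it copies its DNA. They are short, mostly without introns, and their mRNAs end in a stem-loop instead of a poly(A) tail. H2A, H2B, H3 and H4 form the core of the nucleosome, and H1 is the linker histone. In mammals the largest set of them lies in a few clusters on 1 chromosome, and the genes share promoter elements such as CCAAT and TATA boxes, an octamer in H2B promoters and an AAACACA element in H1 promoters.

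The window held 52 histone genes in 3 subclusters, separated by genes of other families. Subcluster 1 spanned 21705711 to 21847530 with 18 histone genes, subcluster 2 spanned 22025122 to 22053658 with 5, and subcluster 3 spanned 23521044 to 23774412 with 29 histone genes and Hfe. These limits include 10 kb on each side of the outermost genes. Between subclusters 1 and 2 lay a stretch with 28 tRNA genes and the protein-coding genes Zfp184, Pom121l2 and Prss16. Between subclusters 2 and 3 lay the longest stretch, 22057168 to 23269501, with 36 protein-coding vomeronasal receptor genes of the Vmn1r family, 39 vomeronasal pseudogenes and Gm11295. It was followed by the stretch from 23269502 to 23521043 with 42 tRNA genes, the butyrophilin genes Btn1a1 and Btn2a2, Zfp322a and Abt1. Vmn1r genes encode pheromone receptors of vomeronasal sensory neurons, and tRNA genes are transcribed by RNA polymerase III.

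The promoters below, 250 bases before to 50 after the annotated start site, were taken from RefSeq on GRCm38.p6. They are shown because their start sites lay under interaction anchors: H2bc6, H4c1, H1f2 and Zfp184 in H3K27ac tables only, H1f3 in 2 H3K27ac and 2 Smc1 tables, and Vmn1r194 in Smc1 tables only. Capitals mark, on either strand, the TATA box, the CCAAT box, the octamer and the H1 box, whose letters stand with their counts after the sequences. H2bc6 has another annotated start site, at 23585970, whose promoter is not printed. The histone genes printed are H2bc6 (chr13:23621045-23621344, minus strand), H4c1 (chr13:23761200-23761499, minus strand), H1f3 (chr13:23554782-23555081, plus strand) and H1f2 (chr13:23738557-23738856, plus strand).
H2bc6: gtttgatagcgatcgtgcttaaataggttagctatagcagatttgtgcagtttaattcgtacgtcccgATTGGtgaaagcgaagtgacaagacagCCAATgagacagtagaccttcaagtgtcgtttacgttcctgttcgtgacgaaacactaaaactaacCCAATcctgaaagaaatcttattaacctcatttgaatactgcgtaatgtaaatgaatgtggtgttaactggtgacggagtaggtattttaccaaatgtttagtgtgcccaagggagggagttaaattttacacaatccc
H4c1: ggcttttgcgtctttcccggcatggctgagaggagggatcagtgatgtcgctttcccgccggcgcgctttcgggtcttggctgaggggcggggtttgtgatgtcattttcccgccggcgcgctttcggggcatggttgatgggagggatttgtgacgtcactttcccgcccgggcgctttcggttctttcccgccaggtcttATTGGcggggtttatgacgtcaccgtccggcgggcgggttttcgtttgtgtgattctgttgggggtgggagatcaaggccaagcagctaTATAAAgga
H1f3: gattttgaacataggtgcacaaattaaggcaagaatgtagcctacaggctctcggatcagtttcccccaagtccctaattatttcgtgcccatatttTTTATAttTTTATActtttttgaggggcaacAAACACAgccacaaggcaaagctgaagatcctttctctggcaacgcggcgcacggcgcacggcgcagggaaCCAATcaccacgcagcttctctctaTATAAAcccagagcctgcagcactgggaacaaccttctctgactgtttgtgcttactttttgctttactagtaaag
H1f2: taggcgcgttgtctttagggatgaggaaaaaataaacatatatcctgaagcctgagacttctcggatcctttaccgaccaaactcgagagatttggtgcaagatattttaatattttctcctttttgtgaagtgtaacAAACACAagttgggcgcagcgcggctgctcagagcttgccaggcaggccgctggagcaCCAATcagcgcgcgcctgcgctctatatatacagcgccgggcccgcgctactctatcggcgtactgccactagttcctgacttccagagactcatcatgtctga
The other 2 are Zfp184 (chr13:21944844-21945143, plus strand), in which none of the motifs was found, and Vmn1r194 (chr13:22243965-22244264, plus strand).
Zfp184: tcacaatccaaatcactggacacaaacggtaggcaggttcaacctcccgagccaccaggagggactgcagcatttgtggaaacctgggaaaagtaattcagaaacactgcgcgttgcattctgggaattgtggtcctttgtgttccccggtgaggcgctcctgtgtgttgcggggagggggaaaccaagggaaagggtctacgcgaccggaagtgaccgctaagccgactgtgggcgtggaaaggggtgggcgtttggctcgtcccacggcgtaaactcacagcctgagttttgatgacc
Vmn1r194: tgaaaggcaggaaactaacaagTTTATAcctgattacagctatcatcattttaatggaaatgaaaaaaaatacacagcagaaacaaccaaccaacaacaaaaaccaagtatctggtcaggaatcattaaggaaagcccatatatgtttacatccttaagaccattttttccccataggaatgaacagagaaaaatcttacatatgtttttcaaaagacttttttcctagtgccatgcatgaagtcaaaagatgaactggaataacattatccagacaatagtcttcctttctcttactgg

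RefSeq promoters were matched to 49 of the 52 histone genes and to 33 of the 36 vomeronasal genes. The TATA box TATAAA, searched on both strands like the other motifs, was in 29 of the 50 histone promoters (58%), against 12.6% of all 21263 promoters in the table. CCAAT was in 42 histone promoters (84%), against 38.2% of all promoters. All promoters of H1, H2A, H2B and H3 genes held CCAAT, while only 3 of the 11 H4 promoters did. The octamer ATTTGCAT was in 4 of 12 H2A and 5 of 14 H2B promoters, against 1.66% of all promoters, and the H1 box AAACACA was in 5 of 6 H1 promoters, against 6.15%. The core of the motif bound by CTCF, a partner of cohesin at many loop anchors, was in 0 of the 50 histone promoters and 0 of the 33 vomeronasal promoters. It was in 2.34% of all promoters, a share so low that 0 among 50 shows no depletion. Of the 33 vomeronasal promoters, 9 held TATAAA (27.3%), 12 CCAAT (36.4%), 3 the octamer (9.09%) and 9 AAACACA (27.3%). These are matches of letters within the 300 bases and say nothing of binding.

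Depth differed by antibody. The H3K27ac tables held 404343 and 538308 read pairs in NOD and 482321 and 1283674 in BL6. The Smc1 tables held 1798655 and 1650890 in NOD and 2089781 and 2971366 in BL6, and the F1 library 879117 when mapped to NOD and 837034 when mapped to BL6. A table listed an interaction only with at least 2 read pairs, so that a value of 0 means not listed. Genes that define double-positive thymocytes (Cd4, Cd8a, Cd8b1, Rag1, Rag2, Cd3e, Bcl11b and Ptcra) were each listed with at least 2 read pairs in every H3K27ac library. In Smc1, Cd3e and Ptcra had 0 read pairs in NOD library 2, and Ptcra also in the F1 tables. Cd4, a coreceptor gene, had 42 and 80 read pairs in H3K27ac of NOD and 191 and 85 in BL6, against 81 and 10 in Smc1 of NOD and 51 and 31 in BL6. Over all 21631 protein-coding genes the median level was 19.1 CPM (read pairs relative to the table total) in H3K27ac and 15.7 CPM in Smc1. The 9 double-positive markers, 1 of them not named here, had medians of 134 CPM in H3K27ac and 18.3 CPM in Smc1. In Smc1 this lay below the B cell, myeloid and thymic epithelium medians that follow. The 5 B cell markers had medians of 32.9 CPM in H3K27ac and 29.2 CPM in Smc1, the 4 myeloid markers 32.1 and 23.4 CPM, the 4 thymic epithelium markers 34.2 and 23.6 CPM, and the 4 erythroid markers 8.25 and 9.43 CPM, with Gata1 at 0 in every table. Contacts near a gene are no measure of its expression, and the part of other cells in the results was not tested. In these bulk libraries, fewer cells with a contact and fewer contacts per cell cannot be told apart.

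The histone window took a smaller share of the H3K27ac libraries than of the Smc1 libraries. In H3K27ac it held 116 and 131 read pairs in NOD and 290 and 533 in BL6, or 287, 243, 601 and 415 CPM. In Smc1 it held 1183 and 1110 read pairs in NOD and 1642 and 2056 in BL6, or 658, 672, 786 and 692 CPM. All 4 H3K27ac values lay below all 4 Smc1 values. The means were 387 ± 161 CPM in H3K27ac and 702 ± 57.6 CPM in Smc1 (SD, n = 4 each), a difference of -315 CPM with an exact two-sided permutation p of 0.0286, the smallest that 4 against 4 libraries allow. Adjusted by Benjamini-Hochberg over the 5 antibody measures given here, this p is 0.0357. With the technical Smc1 replicates counted as 1 sample per strain, the exact permutation p is 0.133, the smallest that 4 against 2 allow. Within BL6 alone and within NOD alone the H3K27ac values also lay below the Smc1 values, and 2 against 2 libraries cannot give a p below 0.333.

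Between the strains the window had lower values in NOD with either antibody. H3K27ac libraries averaged 265 ± 30.8 CPM in NOD and 508 ± 132 CPM in BL6 (SD, n = 2 each), a ratio of 0.522. Smc1 libraries averaged 665 ± 10.4 CPM in NOD and 739 ± 66.3 CPM in BL6 (SD, n = 2 each), a ratio of 0.900. Whether the strain ratio differs between the antibodies was not tested. Both NOD values lay below both BL6 values in either antibody, with an exact permutation p of 0.333, the smallest possible. With both anchors inside the window the strains overlapped: the difference NOD minus BL6 was -65.5 CPM in H3K27ac (exact permutation p = 0.667) and -19.5 CPM in Smc1 (exact permutation p = 1). The F1 library gave 545 read pairs (620 CPM) with NOD mapping and 555 (663 CPM) with BL6 mapping, a ratio of 0.935 between 2 mappings of the same reads.

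The window was not rich in contacts for its size, but its contacts were long. Of 1166 autosomal windows of the same length, between 25.4% and 45.5% had a lower CPM than the histone window, depending on the table. Contacts over 1 Mb made up 41.9% and 57.6% of its interactions in H3K27ac of NOD and 62.8% and 50.9% in BL6, against 25.8%, 36.4%, 36.5% and 38.8% of all interactions in the same libraries. In Smc1 they made up 40.3% and 51.6% in NOD and 53.4% and 50.7% in BL6, against 25.7%, 34.8%, 36.2% and 32.5% of all interactions. A window takes in contacts by either anchor, which favours long ones, so windows of the same length are the closer comparison. Their median share was 30.5% and 43.4% in H3K27ac of NOD and 41.9% and 44.9% in BL6. In Smc1 it was 32.6% and 41.6% in NOD and 44.2% and 40.2% in BL6. The share of the histone window was higher than in 71.6% to 98.5% of the autosomal windows with enough interactions to count, across the 10 tables. The exact 95% binomial interval in the shallowest table, H3K27ac NOD library 1 with 43 interactions, ran from 27.01% to 57.87%.

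**Figure D1:**
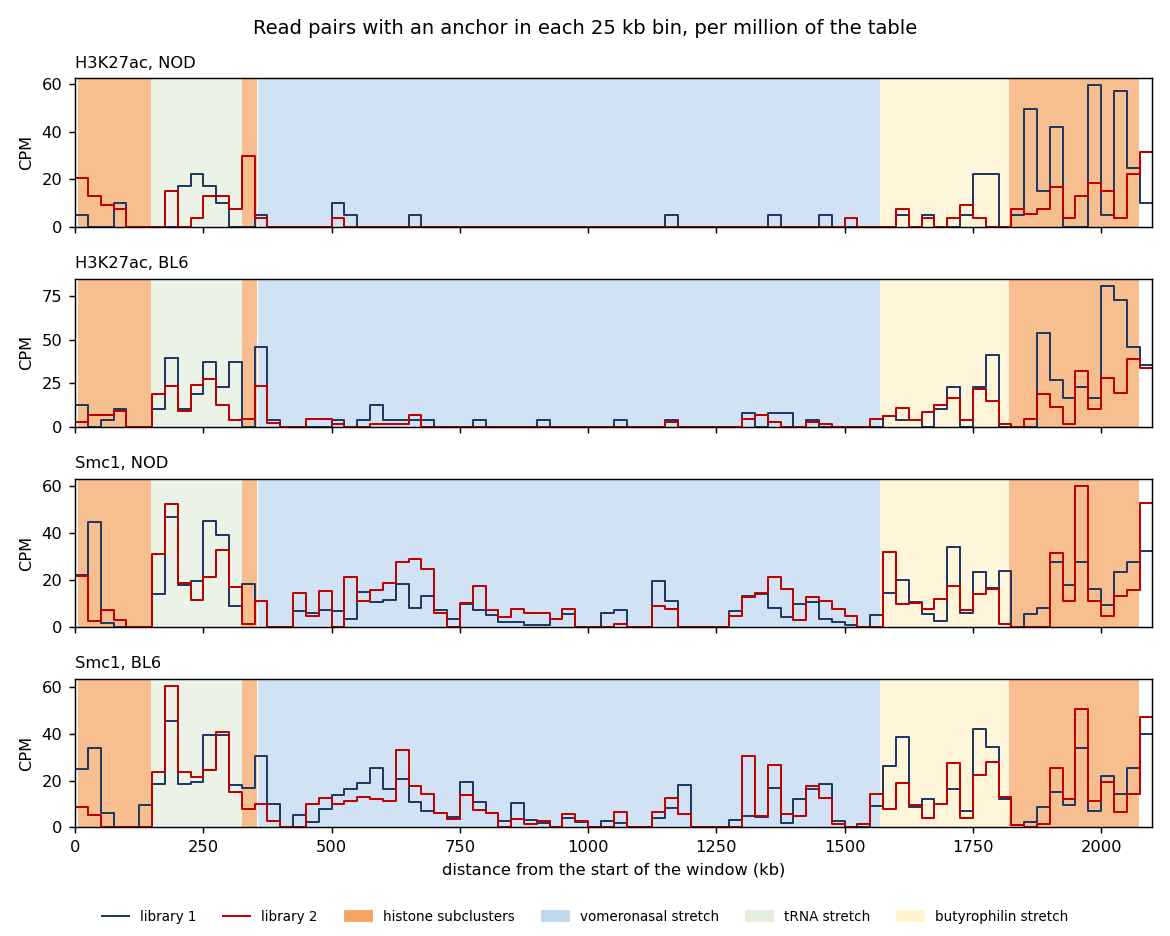
Read pairs relative to the table total (CPM, y axis) with an anchor in each 25 kb bin across the histone window (x axis, kb from its start), for the libraries of each antibody and strain, with segments shaded. In Smc1 the vomeronasal stretch carried contacts over most of its length, while in H3K27ac 25 of its 49 bins were listed in no library.

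The split of contacts between histone subclusters and the vomeronasal stretch differed between the antibodies. A histone subcluster was at either anchor of 62.9% and 70.2% of the window's read pairs in H3K27ac of NOD (73 of 116 and 92 of 131) and of 48.3% and 42.8% in BL6 (140 of 290 and 228 of 533). In Smc1 it was 32.5% and 19.4% in NOD and 24.6% and 19.8% in BL6. The H3K27ac shares did not overlap the Smc1 shares, with means of 56.1 ± 12.7% and 24.1 ± 6.08% (SD, n = 4 each, exact permutation p = 0.0286, adjusted 0.0357, and 0.133 with technical replicates collapsed). In CPM these contacts had 181 and 171 in H3K27ac of NOD and 290 and 178 in BL6. In Smc1 they had 213 and 130 CPM in NOD and 193 and 137 CPM in BL6, so that on this scale the antibodies overlapped.

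The vomeronasal stretch showed the opposite order. It was at either anchor of 10.3% and 3.05% of the read pairs in H3K27ac of NOD (12 and 4 read pairs) and of 15.9% and 12.9% in BL6 (46 and 69 read pairs). In Smc1 it was at 32.7% and 46.0% in NOD (387 and 511 read pairs) and at 37.3% and 39.3% in BL6 (613 and 808 read pairs). The means were 10.6 ± 5.48% in H3K27ac and 38.8 ± 5.53% in Smc1 (SD, n = 4 each, exact permutation p = 0.0286, adjusted 0.0357, collapsed 0.133). The F1 library gave 50.3% with NOD mapping and 48.3% with BL6 mapping. Contacts with both ends inside the vomeronasal stretch had 2 and 0 read pairs in H3K27ac of NOD and 2 and 6 in BL6, against 157 and 178 in Smc1 of NOD and 196 and 307 in BL6. The 0 among 131 read pairs allows a share of up to 2.29%, for counting error only.

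Contacts that joined 1 histone subcluster to another were few in every library. They had 6 and 14 read pairs in H3K27ac of NOD and 9 and 22 in BL6, against 23 and 10 in Smc1 of NOD and 33 and 13 in BL6, and 3 in each F1 table. As a share of the window this was 5.17%, 10.7%, 3.10% and 4.13% in the H3K27ac libraries and 1.94%, 0.901%, 2.01% and 0.632% in the Smc1 libraries, taken in the same order. The means were 5.77 ± 3.38% and 1.37 ± 0.708% (SD, n = 4 each, exact permutation p = 0.0286, adjusted 0.0357, collapsed 0.133). With interactions of at least 3 read pairs only, the difference was 4.06 percentage points with an exact permutation p of 0.486. In CPM the H3K27ac libraries had 14.8, 26.0, 18.7 and 17.1 and the Smc1 libraries 12.8, 6.06, 15.8 and 4.38, taken in the same order. On that scale H3K27ac NOD library 1 lay below Smc1 BL6 library 1, so that the antibodies overlapped.

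Contacts inside 1 subcluster did not separate the antibodies. Their share was 33.6% and 3.05% in H3K27ac of NOD and 17.6% and 5.82% in BL6, against 7.35% and 6.13% in Smc1 of NOD and 4.93% and 6.52% in BL6. The means were 15.02 ± 13.9% and 6.23 ± 1.01% (SD, n = 4 each), with an exact permutation p of 0.4. The replicate spread in H3K27ac exceeded the difference of 8.79 percentage points.

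**Figure D2:**
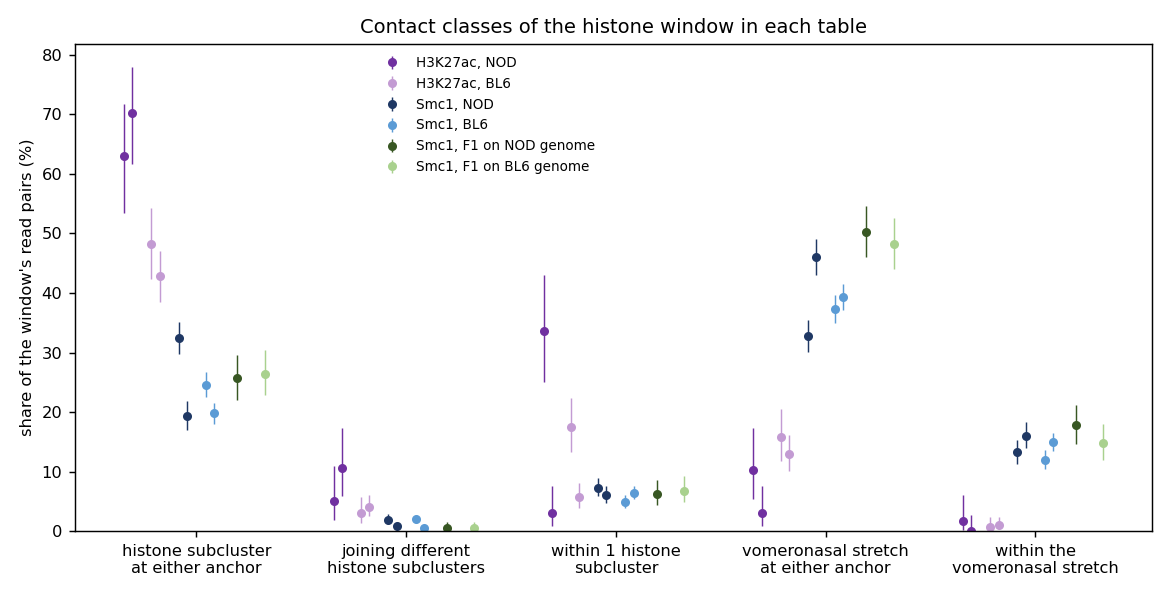
Share of the window's read pairs (y axis, %) in 5 overlapping contact classes, 1 point per table with its exact 95% binomial interval, which covers counting error only. H3K27ac tables lie above Smc1 tables for histone subclusters at either anchor and below them for the vomeronasal stretch.

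Among the subclusters, subcluster 3, which holds most H1 genes and Hfe, carried most of the histone contacts. It is also the longest, at 253 kb against 142 kb for subcluster 1 and 28.5 kb for subcluster 2. The counts here are not divided by length. Subcluster 3 was at either anchor of 71 and 61 read pairs in H3K27ac of NOD and 124 and 198 in BL6, or 61.2%, 46.6%, 42.8% and 37.2% of the window. In Smc1 it had 260 and 186 read pairs in NOD and 264 and 373 in BL6, or 22.0%, 16.8%, 16.1% and 18.1%. Subcluster 1 had 6 and 27 read pairs in H3K27ac of NOD and 9 and 32 in BL6, against 100 and 37 in Smc1 of NOD and 123 and 24 in BL6. Subcluster 2 had 2 and 18 read pairs in H3K27ac of NOD and 16 and 20 in BL6, against 47 and 2 in Smc1 of NOD and 50 and 23 in BL6. In Smc1 the libraries numbered 1 of both strains thus held more read pairs of subclusters 1 and 2 than the libraries numbered 2. Over all genes these libraries also stood apart, with 28.1% and 27.5% of 17274 start sites under an anchor in NOD and BL6 library 1, and 19.9% and 20.8% in library 2. The labels do not say that the libraries numbered alike were made together, and the part of the library in these values was not tested.

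For each gene, read pairs were added up from interactions that placed an anchor at most 5 kb from its start or end. Histone genes are near-identical copies, some less than 1 kb apart, so neighbours share the same interactions, reads of 38 bases may not tell copies apart, and single histone genes are uncertain. With each gene averaged over the 4 parental libraries of an antibody, the median histone gene had 5.69 CPM in H3K27ac and 0.556 CPM in Smc1. Over all protein-coding genes it was 19.1 and 15.7 CPM. Within single libraries the histone median was lower, 4.95 and 5.57 CPM in H3K27ac of NOD and 0 and 1.56 CPM in BL6. It was 0 in every Smc1 library. The median vomeronasal gene of the window had 0 CPM in H3K27ac and 2.79 CPM in Smc1, and the 195 Vmn1r genes elsewhere in the genome had 0 and 0.239 CPM. Histone genes were listed in at least 1 H3K27ac library for 44 of 52 (84.6%), near the 84.7% of all protein-coding genes. In at least 1 parental Smc1 library it was 30 of 52 (57.7%), against 90.9% of all genes. For vomeronasal genes it was 16 of 36 (44.4%) in H3K27ac and 29 of 36 (80.6%) in Smc1. Per library, 27 and 38 histone genes were listed in H3K27ac of NOD and 18 and 29 in BL6. In Smc1 it was 23 and 9 in NOD and 21 and 10 in BL6, so the antibodies overlapped. By family, the H1 genes had the highest medians, 13.7 CPM in H3K27ac and 3.77 CPM in Smc1, while H3 genes had 2.64 and 0 CPM. The 10 histone genes on chromosome 3, the other large histone locus, had medians of 13.1 and 1.39 CPM, so a higher level in H3K27ac than in Smc1 was seen at both loci.

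Of the 46 histone genes listed in a parental library, 41 (89.1%) had a higher mean CPM in H3K27ac than in Smc1, against 58.3% of all 19796 listed genes. The same held for 2 of the 29 listed vomeronasal genes (6.9%) and for 2 of the 11 other genes. All 4 H3K27ac libraries lay above all 4 Smc1 libraries for 8 histone genes, 17.4% of those listed, against 6.7% of all listed genes. They were the linker histone gene H1f5, H3c11, H4c4, H4c1 and the H2A and H2B genes H2ac6, H2ac4, H2bc6 and H2bc3. These are not 8 separate observations. H1f5 and H3c11 had the same read pairs in every library, H2ac4 and H2bc3 had the same in H3K27ac, and H4c4 lies near the lower end of H2bc6. The share thus counts some interactions more than once. All 4 H3K27ac libraries lay below all 4 Smc1 libraries for 11 vomeronasal genes, 37.9% of those listed, and for Pom121l2 and Gm11295, against 6.6% of all listed genes. No histone gene lay below and no vomeronasal gene above. These counts compare depths that differ and carry no p. In a shallow table few read pairs give a high CPM. H2ac13 and H3c10 counted as higher in H3K27ac on 2 read pairs in NOD library 2, against 6 in Smc1 BL6 library 1.

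The 5 histone genes with the highest mean Smc1 level were H2bc14, H1f1, H4c11, H2bc6 and H1f4. H2bc14, an H2B gene of subcluster 1 at 21722044 to 21722526, had 0 read pairs in all 4 H3K27ac libraries, against 42 and 0 in Smc1 of NOD and 62 and 0 in BL6. Its Smc1 level was thus set by 1 library of each strain. H1f1, a linker histone gene at 23763668 to 23764412, had 6 and 6 read pairs in H3K27ac of NOD and 20 and 31 in BL6, against 35 and 9 in Smc1 of NOD and 29 and 10 in BL6. It averaged 22.9 CPM in H3K27ac and 10.5 CPM in Smc1. H4c11, an H4 gene at 21735034 to 21735456, had 0 and 5 read pairs in H3K27ac of NOD and 0 and 9 in BL6, against 24 and 4 in Smc1 of NOD and 37 and 16 in BL6.

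H2bc6, an H2B gene annotated from 23583670 to 23621124, had the highest histone level in H3K27ac, with 15 and 11 read pairs in NOD and 36 and 37 in BL6, a mean of 40.2 CPM. Its annotated ends lie far apart, so this value adds contacts from separate places, and its rank cannot be set against short histone genes. H4c4, close to its lower end at 23581568 to 23581969, had 2 and 2 read pairs in H3K27ac of NOD and 21 and 24 in BL6. In Smc1 H2bc6 had 32 and 23 read pairs in NOD and 7 and 0 in BL6, a mean of 8.77 CPM, and 13 and 12 in F1 mapped to NOD and to BL6. H1f4, a linker histone gene next to its start at 23621777 to 23622558, had 13 and 9 read pairs in H3K27ac of NOD and 15 and 13 in BL6, against 23 and 23 in Smc1 of NOD and 7 and 0 in BL6. For both genes the 2 NOD libraries lay above the 2 BL6 libraries in Smc1. Across all genes neither passed the test: H2bc6 had a log2 fold change NOD over BL6 of 3.34 (SE 1.31) with an adjusted p of 0.999 in edgeR's quasi-likelihood test. At the low end, 6 neighbouring genes of subcluster 1 (H2bc23, H2ac23, H4c17, H4c18, H2ac24 and an H2B gene listed as H4bc24) were in no table at all, over 21806412 to 21837530.

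At start sites the antibodies differed in the same direction. A start site lay under an anchor in at least 1 H3K27ac library for 20 of the 49 histone genes with a RefSeq start (40.8%), and in at least 1 parental Smc1 library for 1 of 49 (2.04%). Over all 17274 protein-coding genes the shares were 59.3% and 42.1%. Per library the count of histone genes was 8 and 13 in H3K27ac of NOD and 6 and 6 in BL6, against 1 and 0 in Smc1 of NOD and 1 and 0 in BL6. Of the histone families H4 had the largest share, 7 of 11 in H3K27ac and 0 of 11 in Smc1, while the other genes of the window had 6 of 8 and 3 of 8. For vomeronasal genes it was 0 of 33 in H3K27ac and 6 of 33 in Smc1 (18.2%). On chromosome 3 the histone start sites followed the same order, 5 of 8 in H3K27ac and 0 of 8 in Smc1.

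The promoters printed above show this gene by gene. The H2bc6 start site at 23621094 lay under anchors with 13 and 7 read pairs in H3K27ac of NOD and 7 and 11 in BL6, and with 0 in every Smc1 library. Its other annotated start site, at 23585970, had 2 and 0 read pairs in H3K27ac of NOD and 21 and 18 in BL6, and 0 in every Smc1 library. The H4c1 start site had 6 and 0 read pairs in H3K27ac of NOD and 16 and 15 in BL6, and 0 in every Smc1 library. The H1f3 start site had 14 and 0 in H3K27ac of NOD and 0 and 4 in BL6, against 2 and 0 in Smc1 of NOD and 5 and 0 in BL6, and was the 1 histone start site listed in Smc1. The H1f2 start site had 13 and 0 in H3K27ac of NOD and 3 and 0 in BL6. Zfp184, a zinc finger gene, had 9 and 2 read pairs at its start site in H3K27ac of NOD and 9 and 9 in BL6, and 0 in Smc1. The Vmn1r194 start site had 0 in H3K27ac, against 0 and 13 in Smc1 of NOD and 12 and 17 in BL6. Of the 6 printed start sites, only those of H2bc6 (at 23621094) and Zfp184 were listed in all 4 H3K27ac libraries.

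**Figure D3:**
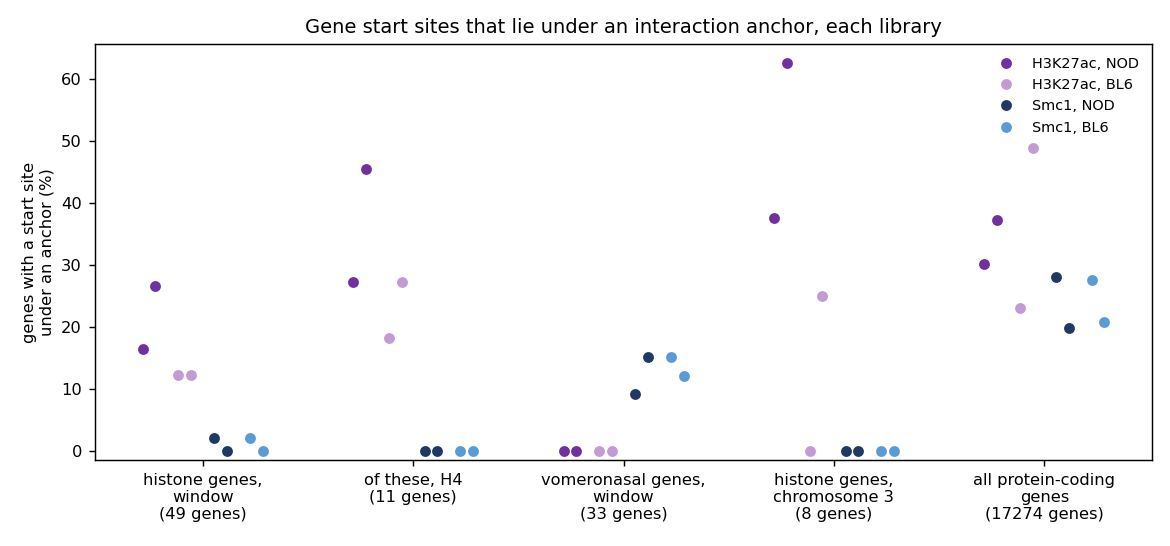
Share of genes (y axis, %) whose RefSeq start site lay under an interaction anchor, 1 point per parental library, for 5 gene groups. Each of the 4 H3K27ac libraries listed between 6 and 13 histone start sites, which were nearly absent from Smc1, and vomeronasal start sites were listed in Smc1 only.

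The vomeronasal genes with the highest Smc1 level lay next to one another. Vmn1r197, at 22327911 to 22328807, had 0 and 0 read pairs in H3K27ac of NOD and 0 and 2 in BL6, against 20 and 38 in Smc1 of NOD and 33 and 66 in BL6. Vmn1r196 had 0 and 0 in H3K27ac of NOD and 6 and 2 in BL6, against 17 and 15 in Smc1 of NOD and 44 and 30 in BL6. Vmn1r198 had 0 and 0 in H3K27ac of NOD and 0 and 7 in BL6, against 8 and 43 in Smc1 of NOD and 15 and 26 in BL6. In CPM all 4 Smc1 libraries lay above all 4 H3K27ac libraries for Vmn1r197, while the antibodies overlapped for Vmn1r196 and Vmn1r198. Vmn1r196 had 12.4 CPM in H3K27ac BL6 library 1, against 9.09 CPM in Smc1 NOD library 2, and Vmn1r198 had 5.45 CPM in H3K27ac BL6 library 2, against 4.45 CPM in Smc1 NOD library 1. Vmn1r212, chosen after its values were seen, had 0 and 0 read pairs in Smc1 of NOD and 36 and 17 in BL6, and 0 in both F1 tables. Its unadjusted p across all genes was 0.00535 and its adjusted p 0.999 in edgeR.

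Unlisted bins were more common in the vomeronasal stretch than across the genome with both antibodies. Of the 49 bins of 25 kb in the vomeronasal stretch, 25 (51.0%) were in no H3K27ac library, against 25.05% of all autosomal bins, and 7 (14.3%) in no parental Smc1 library, against 5.28%. In 1 fit over the 8 parental libraries with strain as a term, chosen after the data were seen, 2 of the 41 tested bins of the window were lower in H3K27ac at an adjusted p under 0.05 (edgeR). Across the genome 3.41% of 64386 bins were called, so that 2 of 41 is near the genome share. The bin from 22325001 to 22350000, with Vmn1r197, had 0 and 0 read pairs in H3K27ac of NOD and 2 and 2 in BL6, against 33 and 46 in Smc1 of NOD and 43 and 98 in BL6. Its log2 fold change was -4.31 (SE 0.965, edgeR adjusted p = 0.0385). The bin from 22450001 to 22475000, which holds the start of the Vmn1r201 annotation, was in no H3K27ac library and had 18 and 17 read pairs in Smc1 of NOD and 41 and 41 in BL6 (edgeR adjusted p = 0.0385). Both bins passed the filter on low counts through their Smc1 values. A bin with almost no H3K27ac read pairs can enter only in that way, so the filter favours lower calls and these p-values are no separate support.

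Of the 49 bins of the vomeronasal stretch 14 passed the filter on low counts, and of the 10 bins of subcluster 3 passed 8, none of which was called. The called bins lost their call when any 1 of 6 libraries was left out, namely every Smc1 library or either H3K27ac NOD library. Those fits called 0 bins across the whole genome, so the loss is not particular to these bins. DESeq2 called 14 window bins in place of 2, against 12% of all bins. At an unadjusted p under 0.05, 19 window bins were lower and 1 higher (edgeR), against 13.4% and 5.02% of all tested bins. The p-values are too small to the extent that the Smc1 libraries are technical replicates.

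Within 1 strain, none of the 50 tested window bins was called for H3K27ac over Smc1 in BL6 and none of 33 in NOD, against 0% of bins across the genome in both fits (edgeR). At an unadjusted p under 0.05, 7 window bins were lower and 1 higher in BL6, against 11.4% and 1.61% of all tested bins. In NOD, 14 were lower and 0 higher, against 11.2% and 1.52%. DESeq2 called 0 in the window in BL6, and in NOD it gave no window bin an adjusted p. DESeq2 called 0.018% of all bins in BL6 and 0.0164% in NOD.

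**Figure D4:**
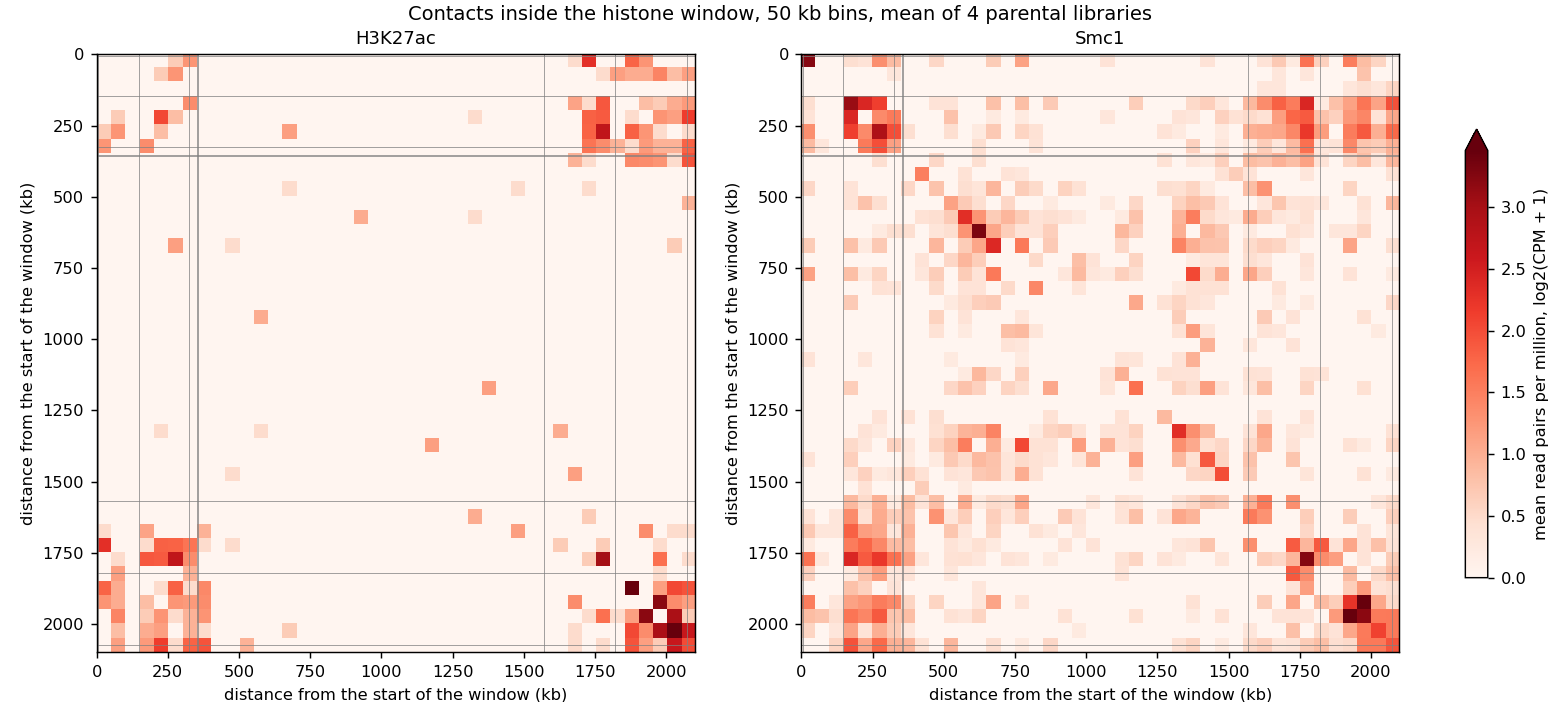
Mean contact frequency inside the histone window between bins of 50 kb, as log2(CPM + 1), for H3K27ac (left) and Smc1 (right), over 4 parental libraries each, with grey lines at the limits of the histone subclusters and the vomeronasal stretch. Both maps show contacts between the 2 flanks of the vomeronasal stretch, and Smc1 shows further contacts inside it.

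Contacts between the flanks of the vomeronasal stretch, over distances above 1 Mb, were found with both antibodies. The near flank was taken as the upstream edge with Olfr1359, subclusters 1 and 2 and the tRNA stretch. The far flank was the butyrophilin stretch, subcluster 3 and the downstream edge with Trim38. Between these flanks H3K27ac held 17 and 31 read pairs in NOD and 52 and 72 in BL6, or 14.7%, 23.7%, 17.9% and 13.5% of the window. Smc1 held 118 and 107 in NOD and 183 and 173 in BL6, or 9.97%, 9.64%, 11.1% and 8.41%. Among 19 pairs of 100 kb bins that span the stretch, the median pair had more read pairs than 0% and 82.3% of autosomal pairs at the same distance in H3K27ac of NOD and than 85.2% and 83.0% in BL6. In NOD library 1, which gave the 0%, only 5 of the 19 pairs were listed. In Smc1 the values were 87.0% and 79.3% in NOD and 97.1% and 84.3% in BL6.

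For the ratios that follow, each 25 kb bin was assigned whole to the segment at its centre, so read pairs can differ from the class counts above. Relative to the autosomal mean at the same distance, counted over all bin pairs whether or not they hold an anchor, the tRNA stretch had observed over expected ratios above 1 with each segment of the far flank in the 4 parental Smc1 libraries. With the downstream edge, which holds Trim38, the ratios were 8.06 and 18.1 in Smc1 of NOD and 12.7 and 19.4 in BL6, on 4 to 19 read pairs a library. H3K27ac had 0 and 0 read pairs there in NOD and 2 and 4 in BL6, and F1 0 and 2 with NOD and BL6 mapping, too few to set against each other. The tRNA stretch with the butyrophilin stretch had ratios of 3.21 and 1.496 in H3K27ac of NOD and 10.2 and 2.73 in BL6. In Smc1 it had 7.90 and 7.38 in NOD and 7.48 and 6.24 in BL6. The H3K27ac strains overlapped, and the high BL6 value came from library 1. The tRNA stretch with subcluster 3 had mean ratios of 3.44 and 4.27 in H3K27ac of NOD and BL6, and of 4.41 and 4.66 in Smc1 of NOD and BL6. Subcluster 1 with subcluster 3 had 4.08 and 2.95 in H3K27ac of NOD and 5.36 and 2.26 in BL6, on 4 to 10 read pairs a library. In Smc1 it had 2.05 and 2.07 in NOD and 3.70 and 0 in BL6, where library 1 held 23 read pairs and library 2 held 0. Inside the vomeronasal stretch the ratio was 0.00878 in H3K27ac of NOD and 0.0175 in BL6, and 0.352 in Smc1 of NOD and 0.372 in BL6. Contacts within the stretch were thus below the autosomal mean for their distance in every library. Not all contacts across it were above that mean: subcluster 1 with the butyrophilin stretch had 1.69 and 2.38 in H3K27ac of NOD and 0 and 1.11 in BL6, and 1.84 and 0.837 in Smc1 of NOD and 2.07 and 0.624 in BL6.

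**Figure D5:**
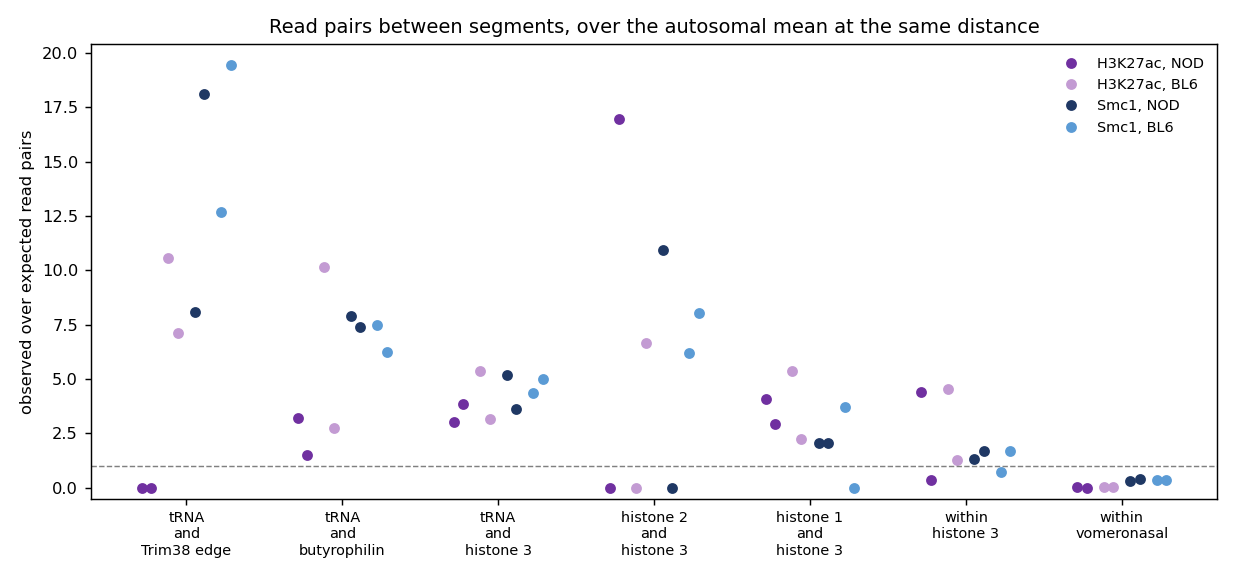
Observed over expected read pairs (y axis) between segments of the histone window, 1 point per parental library, where the dashed line at 1 is the autosomal mean at the same distance. Values for the tRNA stretch with subcluster 3 lie above 1 in all 8 libraries, and values inside the vomeronasal stretch below 1.

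Single pairs of bins were thinly covered. Of the pairs of 25 kb bins in different subclusters, the one with the highest Smc1 level joined 21700001 to 21725000 with 23600001 to 23625000, which holds H2bc6 and H1f4. It had 0 and 0 read pairs in H3K27ac of NOD and 2 and 0 in BL6, against 2 and 5 in Smc1 of NOD and 0 and 0 in BL6. The next joined subcluster 2 (22025001 to 22050000) with the same H2bc6 bin, with 0 and 2 read pairs in H3K27ac of NOD and 0 and 2 in BL6, against 0 and 0 in Smc1 of NOD and 2 and 9 in BL6. The following 3 pairs had at most 4 read pairs in any library, and none of the 8 pairs between subclusters with the highest Smc1 level was listed in more than 4 of the 10 tables. The pair of Zfp184 (21950001 to 21975000) with the H2bc6 bin was listed in 7 tables, with 0 and 3 read pairs in H3K27ac of NOD and 0 in both BL6 libraries, against 4 and 2 in Smc1 of NOD and 2 and 2 in BL6. Of 31 pairs of 100 kb bins with an end in the window that could be tested in Smc1, none differed between NOD and BL6 at an adjusted p under 0.05 (edgeR), against 0% across the genome, and 0 had an unadjusted p under 0.05. Across the genome 2.05% of the pairs were lower and 1.47% higher at that p. DESeq2 called 0 in the window and 0.204% of all pairs.

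Inside subcluster 3, the bin with the highest mean H3K27ac level over the 4 libraries was 23725001 to 23750000, with H1f2, H3c3 and H2bc3, although no single library peaked there. NOD library 1 peaked at 23675001 to 23700000, BL6 library 1 at the Hfe bin from 23700001 to 23725000, and the libraries numbered 2 of both strains at 23750001 to 23775000. The H1f2 bin had 23 and 2 read pairs in H3K27ac of NOD and 35 and 25 in BL6, a mean of 38.2 CPM. In Smc1 it had 42 and 22 read pairs in NOD and 30 and 19 in BL6, a mean of 14.4 CPM. The highest mean Smc1 level of subcluster 3 was in the bin from 23650001 to 23675000, which holds no protein-coding gene. That bin had 0 and 7 read pairs in H3K27ac of NOD and 11 and 41 in BL6, against 50 and 99 in Smc1 of NOD and 71 and 151 in BL6. The contact of the H1f2 bin with the neighbouring Hfe bin had 0 and 0 read pairs in H3K27ac of NOD and 17 and 7 in BL6, against 0 and 4 in Smc1 of NOD and 6 and 9 in BL6.

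The highest Smc1 bins of the window lay mostly outside the histone genes. The bin from 21875001 to 21900000 in the tRNA stretch, with 3 tRNA genes and no protein-coding gene, had 0 and 8 read pairs in H3K27ac of NOD and 19 and 30 in BL6, against 84 and 86 in Smc1 of NOD and 95 and 180 in BL6. The bin of Trim38 at 23775001 to 23800000 followed, then the gene-free bin of subcluster 3, and then the bins of Pom121l2 (21975001 to 22000000) and Zfp184 (21950001 to 21975000). Of the 5, only the bin in subcluster 3 lay in a histone subcluster. Outside the window, the bins with most Smc1 contacts were those of Zkscan8 (21500001 to 21525000), Gpx6 (21300001 to 21325000) and the bin from 21675001 to 21700000, which adjoins the window. The Zkscan8 bin had 0 and 2 read pairs in H3K27ac of NOD and 0 and 10 in BL6, against 23 and 16 in Smc1 of NOD and 24 and 26 in BL6.

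Contacts of the vomeronasal stretch with loci upstream of the window were counted as well. It had 6 and 0 such read pairs in H3K27ac of NOD and 28 and 34 in BL6, of which 2, 0, 14 and 19 fell in the span from 21072349 to 21674980 just upstream of the window, which holds 11 olfactory receptor genes among others. In Smc1 it had 105 and 171 such read pairs in NOD and 206 and 275 in BL6, of which 60, 102, 111 and 140 fell in that span. With the histone subclusters the same stretch shared 0 and 2 read pairs in H3K27ac of NOD and 0 and 5 in BL6, against 20 and 14 in Smc1 of NOD and 13 and 16 in BL6.

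Of the remaining genes, Trim38, an E3 ubiquitin ligase gene of innate immunity, had the highest Smc1 level of the window. It had 8 and 17 read pairs in H3K27ac of NOD and 17 and 47 in BL6 (mean 30.8 CPM), against 60 and 73 in Smc1 of NOD and 91 and 133 in BL6 (mean 41.5 CPM). Hfe, a regulator of iron uptake that is mutated in hemochromatosis, had 6 and 8 read pairs in H3K27ac of NOD and 39 and 11 in BL6 (mean 29.8 CPM), against 17 and 8 in Smc1 of NOD and 32 and 50 in BL6 (mean 11.6 CPM). BL6 library 1 carried the H3K27ac mean of Hfe, with 80.9 CPM, against 14.8 and 14.9 CPM in NOD and 8.57 CPM in BL6 library 2. Prss16, a serine protease known from the thymic cortex epithelium, had 0 and 0 read pairs in H3K27ac of NOD and 2 and 9 in BL6, against 10 and 49 in Smc1 of NOD and 53 and 69 in BL6. Pom121l2, related to a nuclear pore protein, had 2 and 2 in H3K27ac of NOD and 0 and 10 in BL6, against 66 and 23 in Smc1 of NOD and 61 and 85 in BL6. Zfp184 averaged 18.9 CPM in H3K27ac and 20.8 CPM in Smc1, and Btn2a2, a butyrophilin of the immunoglobulin superfamily, 19.9 CPM in both. Btn1a1, a butyrophilin of milk fat, averaged 14.0 CPM in H3K27ac and 19.5 CPM in Smc1, Abt1 8.38 and 7.70 CPM, and the olfactory receptor gene Olfr1359 4.89 and 16.0 CPM.

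NOD and BL6 were compared across all genes and bins in each antibody. In Smc1 none of the 36 tested genes of the window was called at an adjusted p under 0.05 (edgeR), against 0.0458% of 17452 genes across the genome. At an unadjusted p under 0.05, 2 were higher in NOD and 1 lower, against 1.81% and 2.01% of all genes tested. DESeq2 called 0 in the window and 0.292% of all genes. Of the 52 histone genes 12 passed the filter on low counts, and of the 36 vomeronasal genes 14. None of 60 tested bins was called in Smc1, against 0.0581% of 80899 bins. Both bins with an unadjusted p under 0.05 were lower in NOD, against 2.1% of bins lower and 1.81% higher across the genome. DESeq2 called 0 in the window and 0.101% of all bins. A p that misses the threshold with 2 libraries a strain does not show that the strains are alike.

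In H3K27ac none of the 7 tested genes and none of the 12 tested bins was called, against 0% of genes and 0% of bins across the genome (edgeR), with 0 at an unadjusted p under 0.05 and 0 calls by DESeq2. Across the genome 0.38% of genes were lower and 0.492% higher in NOD at that unadjusted p, and 0.248% and 0.258% of bins, while DESeq2 called 0.233% of genes and 0.108% of bins.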

How the data were processed

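HiChIP interaction tables of 9 samples were used, 1 per library and 2 for F1. Per the file headers, each deposited table gives the count of read pairs per interaction, read counts per anchor (not used here) and Q values, the caller's adjusted p-values; listed interactions had at least 2 read pairs, Q up to 0.05 and spans up to 2 Mb. HiC-Pro, MACS, Juicer 1.7.6 and the GRCm38 build are named, without roles, in the submitters' processing notes.

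Read pairs were summed per window, contact class, 25 kb bin, pair of 100 kb bins and gene. CPM is relative to all read pairs of a table. Subclusters joined histone genes over gaps of up to 100 kb. Genes and bins were fitted genome-wide with edgeR 4.0.16 in R 4.3.3 (quasi-likelihood, robust, TMM, filterByExpr, Benjamini-Hochberg), with DESeq2 1.42.0 as an alternative, and the fits were tested on simulated counts. There the Smc1 strain fits over genes and bins called most of the largest planted changes, while the H3K27ac strain fits, the antibody fits within 1 strain and the bin pairs called none, so that finding no call in those fits is uninformative. Single values were compared by exact permutation (scipy 1.17.1). Intervals are exact binomial and, like limits at 0, cover counting error only.

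The members, lists and rules were chosen with earlier results of these data known. The antibody tests over 4 against 4 libraries and the fit over both strains were added after the data were seen. Genes named by rule were those called; the 5 histone and 3 vomeronasal genes with the highest mean Smc1 CPM; the lowest histone gene, where 6 tied; other genes with at least 20 read pairs in 1 library; the top 5 bins, 5 subcluster pairs and 3 outside partners. Genes named for start sites, for groups that did not overlap or with such a remark lie outside it. 1 marker gene of the lists is not reported here.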

Additional observations from a re-analysis of the deposited data

How the results depend on the processing

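Within the window, the counts of 0 called genes, bins and bin pairs between NOD and BL6 were 0 under every alternative run, which with 2 libraries a group is no sign of stability, and a replicate block gave 0 calls in each comparison it was run for. The labels do not say whether libraries numbered alike were made together, and with 2 pairs a group the data cannot settle it: the deviations of same-numbered libraries correlated at 0.181 (genes) and 0.081 (bins) in Smc1, 0.469 and 0.553 in H3K27ac, 0.0432 over bin pairs, and -0.151 and -0.295 between antibodies in BL6 and NOD, where a crossed replicate block, chosen after seeing the data, also gave 0. For H3K27ac over Smc1 in BL6 the count of called bins ran from 0 to 14 with 1 library left out (12 of 61 without H3K27ac BL6 library 1, against 14913 of 83880 bins across the genome, and 14 of 60 without library 2, 3 of them higher, against 19600 of 83987). In the fit over both strains, 2 bins were called, 14 with DESeq2, and 0 to 13 with 1 library left out. It was 0 without either H3K27ac NOD library or any Smc1 library, where 0 bins were called across the genome as well. It was 13 of 52 without H3K27ac BL6 library 1, against 10536 of 72943 across the genome, and 5 of 50 without library 2, against 8127 of 73422. The cause was not tested. The log2 fold changes of the 2 called bins kept their sign in all 20 alternatives and lost the call in 12.

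For NOD minus BL6, the window difference was -19.5 CPM in Smc1 with both anchors inside, and in H3K27ac -65.5 CPM with both anchors inside and -89.5 CPM with at least 3 read pairs, and with both anchors inside the strains overlapped; with 1 library left out it ran from -121 to -26.9 CPM in Smc1 and from -336 to -150 CPM in H3K27ac. For H3K27ac minus Smc1, leaving out 1 library gave -387 to -267 CPM, -30.3 to -25.8 percentage points for the vomeronasal share, 27.3 to 36.4 for the histone share and 2.76 to 5.29 for the share joining different subclusters, each with an exact permutation p of 0.0571, the smallest that 4 against 3 allow. With the technical Smc1 replicates counted as 1 sample these were -315 CPM, -28.3, 32.0 and 4.401 percentage points, at the smallest p possible (exact permutation p = 0.133). The share joining different subclusters was 4.06 percentage points with at least 3 read pairs (exact permutation p = 0.486). Depth limits the H3K27ac tables most: 3 read pairs are 7.42 and 5.57 CPM in NOD and 6.22 and 2.34 CPM in BL6, against 1.67 and 1.82 CPM in Smc1 of NOD and 1.44 and 1.01 CPM in BL6.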

Other observations

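Some histone loci were listed with 1 antibody only. H4c4, an H4 gene of subcluster 3, had 2 and 2 read pairs in H3K27ac of NOD and 21 and 24 in BL6, and 0 in every Smc1 table. H4c1 had 6 and 4 in H3K27ac of NOD and 16 and 19 in BL6, and 0 in the 4 parental Smc1 libraries. H1f5 and its neighbour H3c11 in subcluster 1 shared the same values, 4 and 4 in H3K27ac of NOD and 5 and 12 in BL6, and 0 in the parental Smc1 libraries. These genes were chosen after their values were seen, and no test was run on them.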
